A study of Homo sapiens with 4 samples.

Results

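Somatostatin and opioid receptors are 2 small groups of class A (rhodopsin-like) G protein-coupled receptors (GPCRs), and they were read here from expression arrays of HEK293 cells. The 9 genes were SSTR1 to SSTR5, for the 5 somatostatin receptors, and OPRM1, OPRD1, OPRK1 and OPRL1, for the mu, delta, kappa and nociceptin opioid receptors. They were chosen by gene family, not by any measured value, and are 9 of 17217 genes that the arrays named. HEK293 cells derive from human embryonic kidney and were transformed with DNA of an adenovirus, and many cloned receptors have been studied in them. The 4 samples formed 1 untreated group of confluent cells, each with its own culture plate, RNA extraction and single-colour array, so there was no other condition to compare with. A value is an average over a whole culture, in which fewer expressing cells and less RNA per cell cannot be told apart.

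Both groups of receptors bind short peptides that neurons and endocrine cells release. They couple mainly to the Gi/o class of G proteins, which inhibits adenylyl cyclase, opens GIRK potassium channels and closes N- and P/Q-type calcium channels. Somatostatin receptors restrain hormone secretion in the pituitary, gut and pancreas, and opioid receptors dampen transmission of pain. Both are studied largely by transfection into lines such as HEK293, where message that the cells make themselves would matter.

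All 9 genes had probes on the array, 36 in all. Each transcript the array was designed on (a target) had 3 probes. OPRM1 had 4 targets and the other receptors 1 each. A value is given as a level, on the deposited log2 scale, or as a distance, which is the level minus a baseline for zero expression on the same array. The study set that baseline at the mean plus 2 SD of seminal proteins that the cells were thought not to transcribe, and called a gene significantly expressed where its distance was above 0. The baselines of replicates 1 to 4 were 9.47, 9.94, 10.69 and 10.32 log2 units. Probes differ in affinity, and a larger distance is therefore no measure of how much more of 1 message than of another the cells held.

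The regions before the annotated starts are shown for the 4 receptors that have a single start in the RefSeq table (GRCh38.p14) lying at the start of the gene. They span the order of signals found below, from OPRD1 and SSTR2 near the top through SSTR4 to SSTR1 at the bottom. Each is the 250 bases before the start, 5′ to 3′, and the capitals mark the GC box GGGCGG, to which SP1 and SP3 bind, and the E-box CACGTG, to which USF1, USF2 and MYC bind, each searched on both strands:
OPRD1 (chr1:28811920-28812169, + strand): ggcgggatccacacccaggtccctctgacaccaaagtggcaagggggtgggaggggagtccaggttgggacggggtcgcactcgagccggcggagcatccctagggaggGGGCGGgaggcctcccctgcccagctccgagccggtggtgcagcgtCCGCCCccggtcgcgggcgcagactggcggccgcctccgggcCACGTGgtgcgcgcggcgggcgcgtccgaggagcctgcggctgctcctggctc
SSTR2 (chr17:73164760-73165009, + strand): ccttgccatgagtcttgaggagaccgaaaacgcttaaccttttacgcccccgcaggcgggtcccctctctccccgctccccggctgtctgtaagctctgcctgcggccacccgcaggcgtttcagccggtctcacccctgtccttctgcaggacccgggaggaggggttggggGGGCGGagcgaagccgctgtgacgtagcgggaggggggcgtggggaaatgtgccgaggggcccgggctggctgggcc
SSTR4 (chr20:23035062-23035311, + strand): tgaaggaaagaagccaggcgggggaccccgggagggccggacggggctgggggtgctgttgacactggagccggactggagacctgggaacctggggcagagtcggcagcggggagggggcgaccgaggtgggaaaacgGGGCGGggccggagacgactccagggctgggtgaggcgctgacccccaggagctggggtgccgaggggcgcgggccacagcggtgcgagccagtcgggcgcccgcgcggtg
SSTR1 (chr14:38207654-38207903, + strand): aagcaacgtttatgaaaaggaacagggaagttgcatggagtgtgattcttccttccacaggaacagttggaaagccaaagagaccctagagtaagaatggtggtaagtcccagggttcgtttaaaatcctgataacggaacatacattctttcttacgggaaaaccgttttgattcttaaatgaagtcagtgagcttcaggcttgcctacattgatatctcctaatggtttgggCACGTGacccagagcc

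The OPRD1 window held 2 GC boxes, 1 E-box and 27 CpG dinucleotides, and 76% of its bases were G or C. SSTR2 had 1 GC box and 20 CpGs, SSTR4 had 1 GC box and 24 CpGs, and SSTR1 had no GC box, 1 E-box and 6 CpGs. Among 35114 promoter windows of the same length the median was 11 CpGs, 42.6% held a GC box and 6.35% an E-box. The windows of OPRD1, SSTR2 and SSTR4 were therefore richer in CpG than the median window and that of SSTR1 was poorer. A match to these letters describes the window and says nothing of what binds there. The other receptors had several starts in the table, had a start away from the gene's own, or, for OPRK1, had no entry.

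Replicates 1 and 3 stood somewhat apart from replicates 2 and 4. Pearson's r of the gene levels, with genes as points that are no replicates, was 0.971 between replicates 1 and 3 and 0.977 between 2 and 4, against 0.949 to 0.959 for the other pairs. The neurofilament gene NEFM, picked out after its values were seen, lay above the baseline on replicates 1 and 3 (4.10 log2 units on replicate 1) and at -1.62 and -2.24 on replicates 2 and 4. The source of this split was not tested, and values within each pair are given below.

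None of the 9 receptors had a mean distance above the baseline, against 52.7% of all genes, and none lay above it on all 4 arrays, against 45% of all genes. The paper differs for SSTR5, which it lists among receptors whose reported message it also found in HEK293 cells. It lists SSTR2 among those not significant. The study's rule was recomputed here with 10 of its 11 seminal genes, and the source of the difference for SSTR5 was not tested. The limma test of the distances called 0 of 9, against 45.9% of all genes, and 0 of 9 had an unadjusted p under 0.05. A limma fit whose prior followed intensity and was robust also called 0. The test is one-sided, so a gene with a mean distance below 0 cannot pass it. The median distance of the receptors was -2.67 log2 units, while that of all genes was 0.26, that of 71 other class A peptide receptors -3.08 and that of 364 olfactory receptor genes, which the cells were not thought to use, -3.42. SSTR5 and OPRD1 crossed the baseline on some arrays, and the other 7 receptors lay below it on every array, against 39.8% of all genes. The receptors fell into the 3 nearest the baseline (SSTR5, OPRD1 and, below it on every array, SSTR2), 3 in between (SSTR3, SSTR4 and OPRL1) and 3 among the dimmest genes of the array (OPRM1, OPRK1 and SSTR1).

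**Figure D1:**
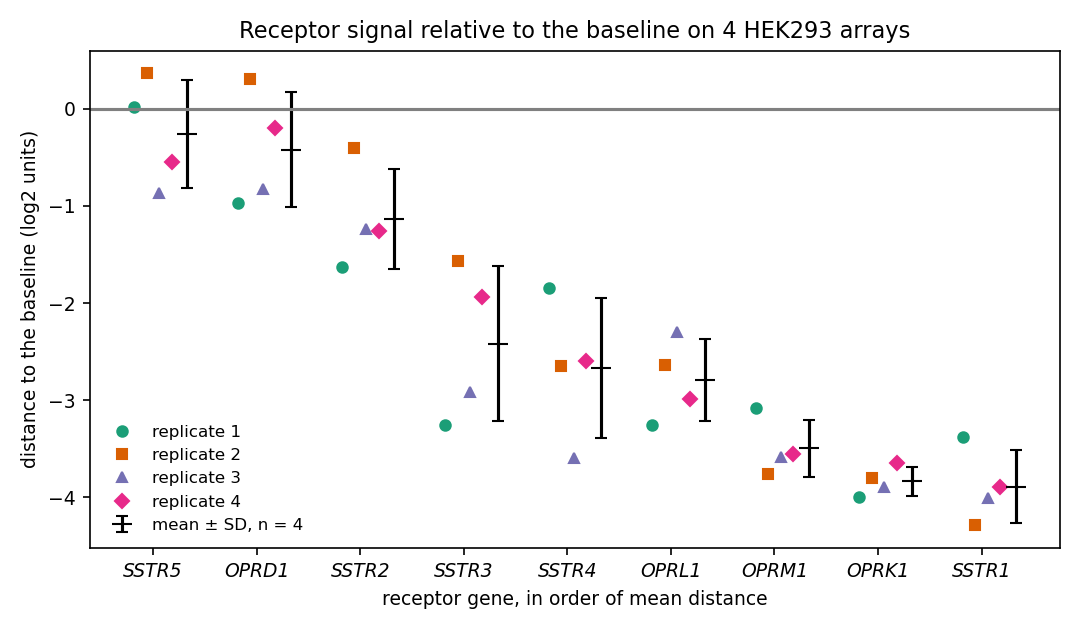
Distance to the baseline of each receptor gene (y axis, log2 units) on the 4 arrays, with genes on the x axis in order of their mean. Coloured points are replicates 1 to 4, black marks are means with SD over the 4 arrays and the grey line is the baseline; SSTR5 lay above it on 2 arrays and OPRD1 on 1, and the other 7 genes on none.

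SSTR5, a somatostatin receptor of the pituitary and pancreatic islets, had the largest mean distance. Its levels were 9.49, 10.30, 9.82 and 9.77 on replicates 1 to 4, a mean of 9.85 ± 0.34 log2 units (SD, n = 4). Its distances were 0.02, 0.36, -0.87 and -0.55 in the same order, so that it stood just above the baseline on replicates 1 and 2 and below it on replicates 3 and 4. The mean distance was -0.26 ± 0.55 log2 units (SD, n = 4), with a 95% interval from limma of -0.95 to 0.43 and an unadjusted limma p of 0.769. The interval included the baseline, so the arrays placed SSTR5 neither above it nor below it. Only 1 of the 364 olfactory receptor genes had a higher mean level, and on single arrays between 1 and 3 did.

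OPRD1 encodes the delta receptor, which enkephalins activate. Its levels on replicates 1 to 4 were 8.50, 10.25, 9.86 and 10.12. Replicate 1 was the low array, and the others lay between 9.86 and 10.25. The distances were -0.97, 0.31, -0.83 and -0.20, above the baseline on replicate 2 alone. The mean was -0.42 ± 0.59 log2 units (SD, n = 4, 95% interval from limma -1.11 to 0.27), which did not separate OPRD1 from the baseline either. SSTR5 exceeded OPRD1 on 2 of 4 arrays, with a mean difference of 0.16 ± 0.58 log2 units (SD, n = 4).

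SSTR2 is the receptor that octreotide and most other clinical somatostatin analogues target. Replicates 1 to 4 gave levels of 7.84, 9.53, 9.45 and 9.06, again with replicate 1 lowest. Its distances ran from -1.63 to -0.41 with a mean of -1.13 ± 0.52 log2 units (SD, n = 4). The 95% interval, -1.82 to -0.44, lay below the baseline. Among the olfactory receptor genes 360 of 364 had a lower mean level. OPRD1 stood above SSTR2 on all 4 arrays, by 0.71 ± 0.27 log2 units (SD, n = 4).

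In the middle were SSTR3, which sits on the primary cilia of neurons, SSTR4, and the nociceptin receptor OPRL1. SSTR3 had levels of 6.22, 8.37, 7.78 and 8.38 on replicates 1 to 4, the widest spread of level among the 9 genes (SD 1.02, n = 4), and its distance averaged -2.42 ± 0.80 (SD, n = 4). SSTR4 had levels of 7.63, 7.29, 7.09 and 7.73 with the narrowest spread of level (SD 0.29, n = 4). Its mean distance was -2.67 ± 0.72 (SD, n = 4). OPRL1 had levels of 6.21, 7.30, 8.40 and 7.34 and a mean distance of -2.79 ± 0.42 (SD, n = 4). The 3 genes overlapped on the arrays, and no array had a distance above -1.57 for any of them. Even so, each had a mean level above that of 325 to 344 of the 364 olfactory receptor genes.

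At the bottom were OPRM1, the mu receptor through which morphine acts, OPRK1, the receptor for dynorphins, and SSTR1. OPRM1 had levels of 6.39, 6.18, 7.10 and 6.77 and averaged -3.49 ± 0.29 log2 units in distance (SD, n = 4). Of the olfactory receptor genes 140 of 364 had a lower mean level, which placed OPRM1 inside their range. OPRK1 had levels of 5.47, 6.14, 6.79 and 6.68 and a mean distance of -3.83 ± 0.15 (SD, n = 4). SSTR1 had levels of 6.09, 5.65, 6.69 and 6.43 and a mean distance of -3.89 ± 0.38 (SD, n = 4). Only 4 and 2 of the 364 olfactory receptor genes lay lower, and of all 17217 genes 0.116% had a lower mean level than OPRK1 and 0.029% than SSTR1. The lowest mean distance of any gene was -3.94, so both sat at the floor of the arrays, under which a message could not be detected.

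Neighbours in this order were compared on the same array, where the baseline cancels, in 8 comparisons with an exact two-sided sign-flip permutation test. The order came from the same values, so each mean difference is positive by construction. With 4 arrays the smallest p the test can give is 2 of 16 sign patterns, or 12.5%, so no pair could pass. That smallest p was reached by OPRD1 over SSTR2, by SSTR2 over SSTR3, at 1.28 ± 0.47 log2 units (SD, n = 4), and by OPRM1 over OPRK1, at 0.34 ± 0.40 (SD, n = 4), each in the same direction on all 4 arrays (exact test, Benjamini-Hochberg adjusted p = 0.333). OPRL1 exceeded OPRM1 by 0.70 ± 0.66 on 3 of 4 arrays (SD, n = 4, exact p = 0.25, adjusted 0.50). The remaining neighbours, SSTR5 and OPRD1, SSTR3 and SSTR4, SSTR4 and OPRL1, and OPRK1 and SSTR1, differed by 0.06 to 0.25 log2 units, less than the spread between arrays (exact p from 0.75 to 0.875, adjusted 0.857 to 0.875).

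The single probes showed what lay behind the 3 highest values. The third probe of SSTR5 had levels of 10.96, 11.79, 11.27 and 11.23 and exceeded the baseline on each of the 4 arrays, on average by 1.20 ± 0.57 log2 units (SD, n = 4). The other probes of the same target lay between 5.89 and 7.17 on every array, at mean distances of -3.19 and -3.46. The gap between the brightest and the dimmest probe was 4.67 log2 units, larger than in 95.8% of named targets. In OPRD1 the first probe lay above the baseline on 3 of 4 arrays, at 0.67 ± 0.84 (SD, n = 4), the third at -1.16 ± 1.07 and the second at -3.94 ± 0.30. In SSTR2 the second probe stood at 0.13 ± 0.61 (SD, n = 4), above the baseline on replicate 2 alone, and the others at -3.40 and -2.77. The gap between probes was 4.61 for OPRD1 and 3.53 for SSTR2, and only 1 of 364 olfactory receptor targets had a gap larger than any of these 3.

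**Figure D2:**
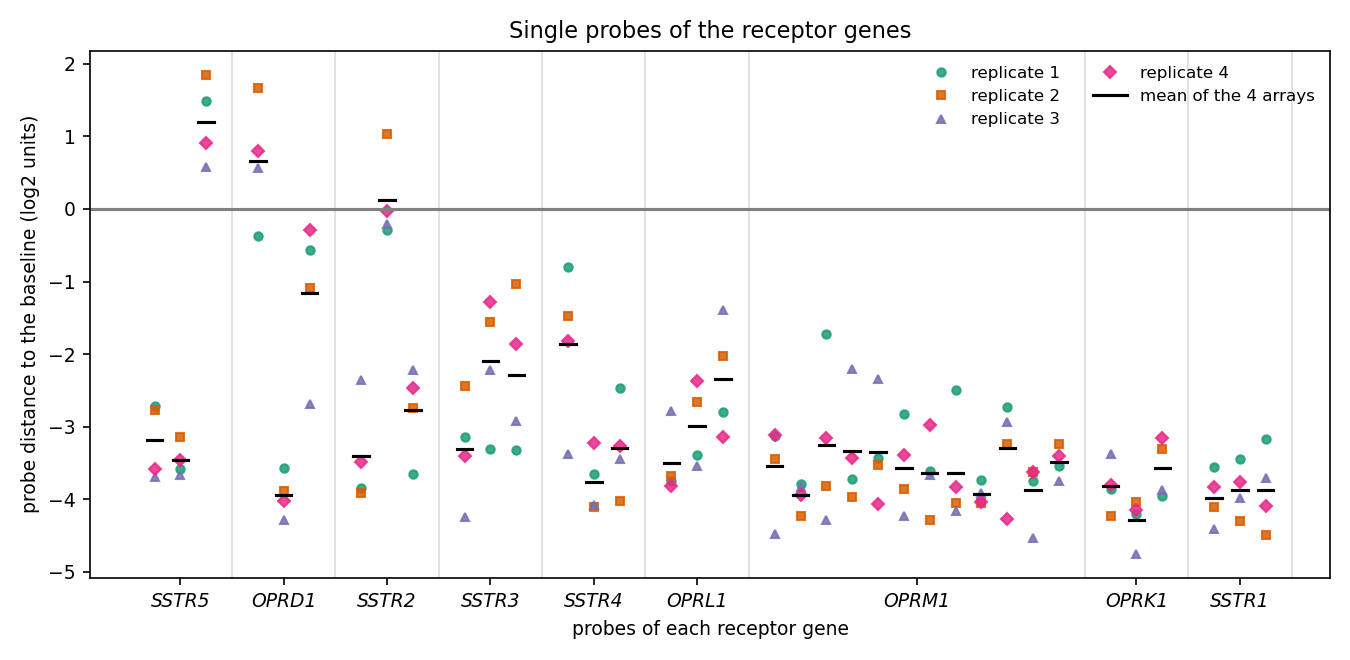
Distance to the baseline (y axis, log2 units) of each of the 36 probes of the receptor genes, grouped by gene on the x axis in the order of the gene means. Coloured points are the 4 arrays, black bars their mean and the grey line the baseline; 1 probe of SSTR5, 1 of OPRD1 and 1 of SSTR2 reached it on at least 1 array, and no other probe did.

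No other probe of the 9 genes reached the baseline on any array. The third probe of SSTR5 was the only one of 36 above it on all 4 arrays, against 38.3% of all named probes. Targets with exactly 1 such probe made up 12.9% of named targets, 2.63% of the targets of other class A peptide receptors and 0.275% of olfactory receptor targets. Without the brightest probe of each target, an alternative chosen after the data were seen, the distance of SSTR5 fell to -2.72, that of SSTR2 to -2.45 and that of OPRD1 to -1.35 log2 units, and SSTR5 then stood below SSTR3, at -2.08. With the median of the probes SSTR5 stood at -3.02, OPRD1 at -1.02 and SSTR2 at -2.63. OPRD1 was then the highest of the 3, and the difference SSTR5 minus OPRD1 was -1.99. Which of the probes of SSTR5 report its message was not tested, because the probe sequences were not used here.

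The 4 targets of OPRM1 are splice variants of 1 gene and gave the same picture. Their 12 probes had means from 6.16 to 6.86 log2 units, and none came closer to the baseline than -1.72 on any array. Of these probes 8 carried a number in their name that occurred in more than 1 of the 4 targets. Over the whole array, probes of a gene with the same number in different targets differed on replicate 1 by a median of 0.27 log2 units (692 pairs), and those with different numbers by 1.13 (23050 pairs). In OPRM1, equal-numbered probes lay up to 1.57 log2 units apart, from 6.78 to 8.34 on replicate 3. That value is the largest range over the 4 arrays and the median is one of pairs on replicate 1, so they do not compare OPRM1 with other genes. No target of OPRM1 stood apart from the others.

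The receptors' levels differed between arrays. All 9 had a lower level on replicate 1 than on replicate 4 and 8 of 9 a lower level than on replicate 3. The same held for 80.5% and 86.3% of olfactory receptor genes and for 52.4% and 56.5% of all genes. Against replicate 2, which shares its distribution of values, replicate 1 was lower for 6 of 9 receptors but for 40.9% of olfactory receptor genes and 49.1% of all genes, with median differences of -0.81, 0.13 and 0.01 log2 units. The median levels of the 9 receptors on replicates 1 to 4 were 6.39, 7.30, 7.78 and 7.73. The deposited values had a common distribution within replicates 1 and 2 and another within replicates 3 and 4, and the low end lay higher in the second pair. With all 4 arrays brought to 1 distribution the distances of SSTR5, OPRD1 and SSTR2 were -0.28, -0.42 and -1.15, close to the values above. On replicates 1 and 2 alone SSTR5 stood at 0.19, and on replicates 3 and 4 alone at -0.71. Replicates 1 and 3 alone gave -0.42 for SSTR5, -0.90 for OPRD1, -1.43 for SSTR2 and -3.08 for SSTR3. Replicates 2 and 4 alone gave -0.09, 0.06, -0.83 and -1.75 for the same genes, each higher than on the first pair, and only OPRD1 changed sign.

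The definition of the baseline changed which receptors were called. Among the seminal controls AFG2A, listed by the study as SPATA5, and SPATA13 had mean levels of 9.97 and 9.72 log2 units, well above the others, and raised it. Without them the baseline fell from 10.10 to 7.78, SSTR5 stood at 2.07 (limma adjusted p = 2.3e-09), OPRD1 at 1.91 (limma adjusted p = 3.2e-08) and SSTR2 at 1.19 (limma adjusted p = 8.8e-05). Over all alternatives the limma adjusted p of each of these 3 genes ran from those values up to 1. With the olfactory receptor genes as controls the baseline was 8.02 and the same genes stood at 1.83, 1.66 and 0.95. That made 3 of 9 receptors above the baseline, against 71.4% of all genes and 22.5% of the other class A peptide receptors. Of the olfactory receptor genes 2.75% lay above it, a share kept small by construction because they set this baseline. The other 6 receptors stayed below the baseline under every definition tried, the nearest being SSTR3 at -0.09. Above the lower baselines SSTR5 and SSTR2 rested on their brightest probe. The other probes had mean levels of 6.92 and 6.64 in SSTR5 and of 6.71 and 7.34 in SSTR2, below even 7.78. In OPRD1 the third probe, at 8.95, lay above that value as well as the brightest.

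**Figure D3:**
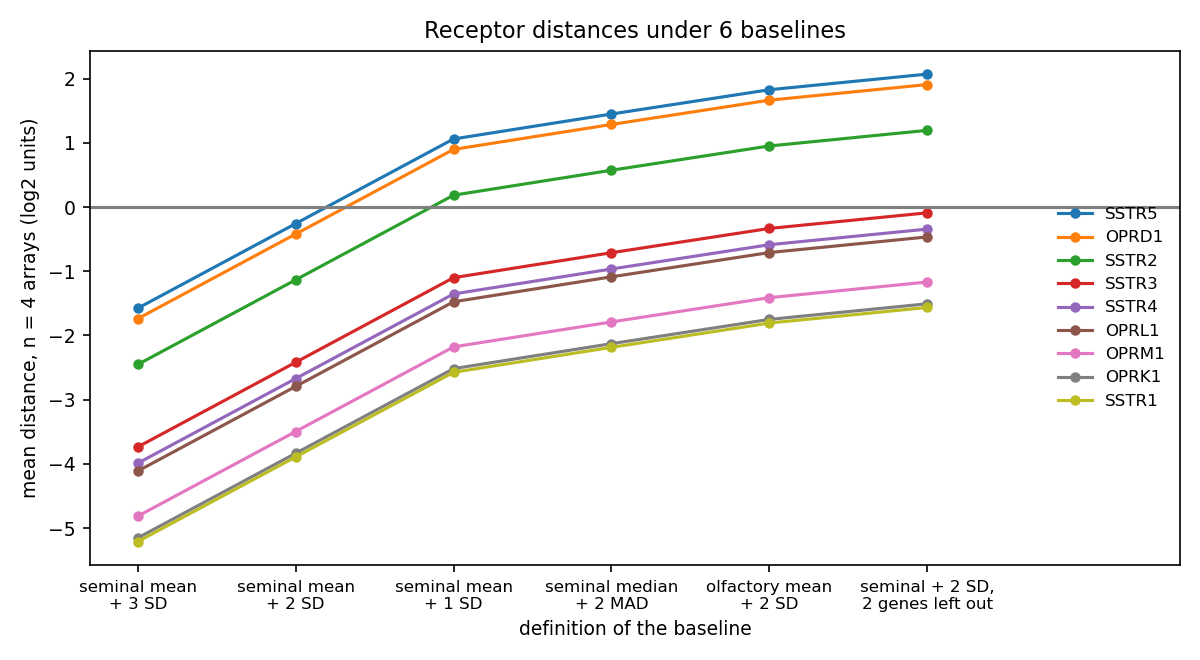
Mean distance of each receptor gene over the 4 arrays (y axis, log2 units) under 6 definitions of the baseline on the x axis, ordered from the highest to the lowest baseline, with lines joining the values of a gene. SSTR5, OPRD1 and SSTR2 lie below the grey zero line with 2 or 3 SD of the seminal controls and above it with the 4 other definitions, while the other 6 genes lie below it with all 6.

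The receptors nearest in sequence to these families also lay below the baseline. Of the receptors for galanin, kisspeptin, urotensin II, melanin-concentrating hormone and neuropeptides B and W, 0 of 9 lay above the baseline, with distances from -3.61 to -1.09. Of the 71 other class A peptide receptors together 4 did (5.63%), and limma called 3 of them. These were the protease-activated receptors F2R, at 2.04 ± 0.43, and F2RL1, at 1.80 ± 0.61, and the receptor QRFPR, at 1.03 ± 1.19 log2 units (SD, n = 4 for each). The fourth was the neurotensin receptor NTSR1, at 0.42 ± 0.50 (SD, n = 4). QRFPR fell to -0.88 and NTSR1 to -3.25 with the median of the probes, as SSTR5 did. The levels of NTSR1 also rose and fell across the arrays most like those of SSTR5, with a root mean square difference of 0.07 log2 units over 4 arrays after each gene was centred on its own mean, followed by F2R at 0.11 and APLNR, the apelin receptor, at 0.13, of 71 genes ranked.

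The peptides that act on these receptors were not called with the study's baseline. Of 5 ligand precursors 0 lay above it. SST, the somatostatin gene, stood at -3.01 ± 0.83 log2 units, CORT, for cortistatin, at -1.59 ± 0.49, PDYN, for dynorphins, at -3.14 ± 0.54, POMC, for beta-endorphin, at -2.81 ± 0.23 and PNOC, for nociceptin, at -2.94 ± 0.65 (SD, n = 4 for each). Some of the lower baselines that turned SSTR5, OPRD1 and SSTR2 turned the distance of CORT too. It stood at 0.73 without SPATA5 and SPATA13, 0.49 with olfactory controls and 0.11 with scaled MADs (median absolute deviations). With 1 SD CORT stayed below, at -0.28, and the other 4 precursors stayed below with all of these baselines. PENK, for enkephalins, had no matched accession and was not analysed here. Of 7 genes tied to the maturation of such peptides, not all of them for enzymes that carry it out, limma called 4. CPE and PAM, which trim and amidate peptides, stood at 4.05 ± 0.62 and 3.80 ± 0.69, FURIN at 2.58 ± 0.60 and PCSK1N at 1.49 ± 0.69 (SD, n = 4 for each). The prohormone convertases PCSK1 and PCSK2, which cut these precursors in neuroendocrine cells, stood at -3.17 ± 0.77 and -1.68 ± 0.84. Of 4 peptidases that degrade enkephalins 1 was called, DPP3 at 2.15 ± 0.83, and neprilysin, MME, stood at -2.82 ± 1.12 (SD, n = 4 for each).

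Among the partners inside the cell, G protein subunits and cyclases were called in part and the ion channels were not. Of the Gi/o alpha subunits 3 of 5 were called, GNAI2 at 3.77 ± 0.54, GNAZ at 2.05 ± 0.64 and GNAI3 at 1.46 ± 0.56 log2 units, while GNAO1, the abundant form of neurons, stood at -1.83 ± 0.45 (SD, n = 4 for each). GNAI1 lay close to the baseline, at -0.02 ± 0.92 (SD, n = 4), and above it on 2 of 4 arrays. Of the adenylyl cyclases, which Gi inhibits, 5 of 9 were called, among them ADCY6 at 2.29 ± 0.73 and ADCY9 at 2.04 ± 0.64 (SD, n = 4 for each). None of the 4 GIRK channel genes was called, with distances from -3.36 to -2.95, and neither were CACNA1A and CACNA1B, the P/Q- and N-type calcium channels, at -3.28 ± 0.39 and -1.74 ± 0.32 (SD, n = 4 for each).

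Of the kinases and arrestins that desensitise the receptors 4 of 6 were called, ARRB2 at 4.79 ± 0.64, GRK6 at 1.85 ± 0.50, GRK5 at 1.84 ± 0.38 and GRK3 at 1.59 ± 0.60 log2 units (SD, n = 4 for each). ARRB1 stood at 0.68 ± 0.60 (SD, n = 4), above the baseline on 3 of 4 arrays, but limma did not call it (adjusted p = 0.057). By the study's rule, a distance above 0, its mean passed, and the paper counts beta-arrestin 1 among the significant messages of HEK293 cells. GRK2, the kinase best known for these receptors, stood at -3.50 ± 0.68 (SD, n = 4). None of 6 RGS genes, whose products speed the shut-off of Gi/o, was called, with distances from -2.45 to -0.48. All 3 phosphatases that somatostatin receptors recruit were called, PTPN11 (SHP-2) at 4.26 ± 0.65, PTPN6 (SHP-1) at 1.69 ± 0.09 and PTPRJ at 1.36 ± 0.67 (SD, n = 4 for each). The narrow spread of PTPN6 is one of distance, since its levels ran from 11.05 to 12.47.

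Among proteins that bind or sort these receptors 7 of 13 were called. The highest were filamin A, FLNA, at 5.52 ± 0.54, NHERF1 at 4.06 ± 0.36 and MPDZ, a multi-PDZ scaffold, at 4.06 ± 0.60 log2 units, while the synaptic scaffolds SHANK1 and SHANK2 stood at -3.45 ± 0.51 and -2.91 ± 0.58 (SD, n = 4 for each). Of 8 transcription regulators known from opioid receptor genes 6 were called. They included USF2 at 5.01 ± 0.50, MYC at 4.45 ± 1.13, SP1 at 3.62 ± 0.48 and REST, a repressor of neuronal genes, at 1.09 ± 0.41, and IKZF1 stood at -3.23 ± 0.32 (SD, n = 4 for each). Of 4 proteins that bind opioid peptides or opioids without being opioid receptors 1 was called, the opioid growth factor receptor OGFR at 1.28 ± 0.65 (SD, n = 4). Over all 76 partner genes measured 38 (50%) lay above the baseline and limma called 34, with a median distance of 0.14, near the 52.7% and 0.26 of all genes. The share of partner genes was thus near that of the array as a whole.

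**Figure D4:**
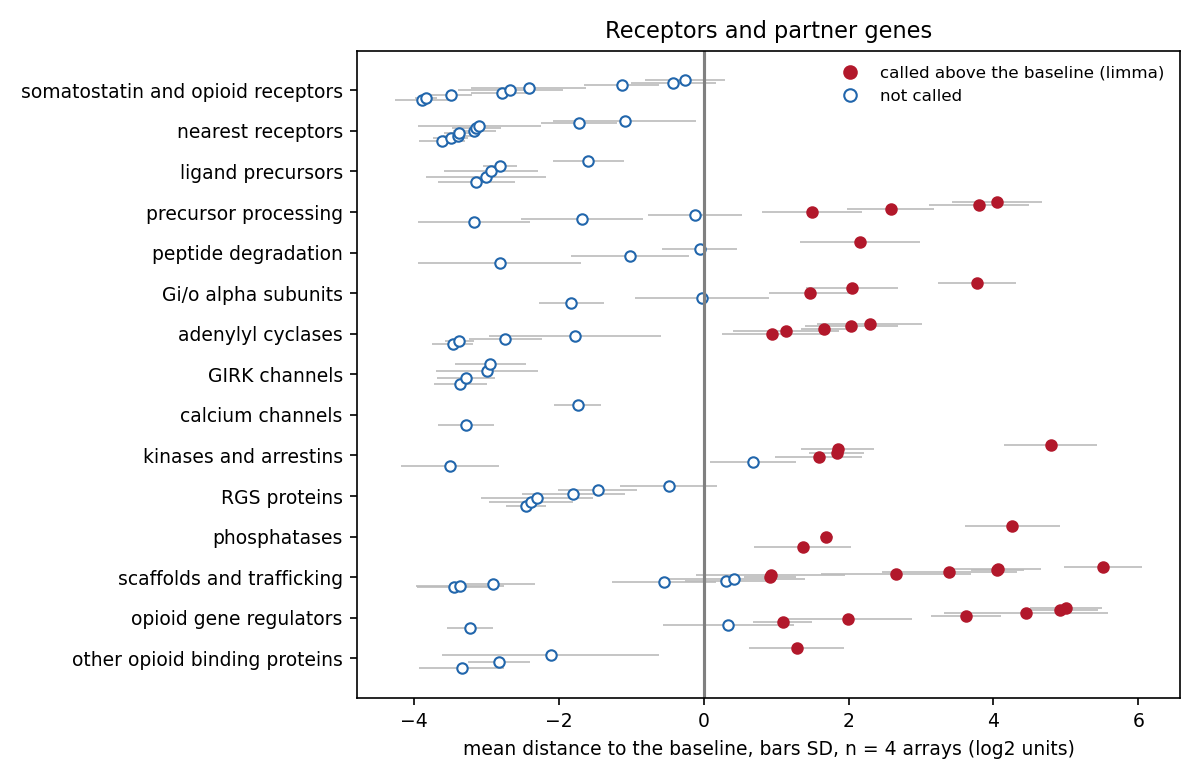
Mean distance to the baseline (x axis, log2 units, bars SD over 4 arrays) of the receptors and of each list of partner genes on the y axis, where a point is a gene, filled red where limma called it above the baseline and open blue where not. The receptors, their nearest relatives, the ligand precursors, the channels and the RGS genes hold no called gene, while all 3 phosphatases and 6 of 8 regulators are called.

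As a check on the label, all 8 genes that every cell uses were called, and 0 of 4 leukocyte markers. Of kidney tubule and podocyte markers 1 of 7 was called, LRP2 at 1.27 ± 0.68 log2 units (SD, n = 4), and UMOD, AQP1, AQP2, SLC12A1, SLC12A3 and NPHS1 were not. Of neuronal and neuroendocrine markers 3 of 9 were called, NEFL at 4.01 ± 0.56, SYP at 3.09 ± 0.89 and INA at 2.41 ± 1.04 (SD, n = 4 for each). Not called were ELAVL4 at -2.91, SCG2 at -2.59, CHGA at -2.29, SNAP25 at -1.40, CHGB at -0.33 and NEFM at 0.66. Of all genes limma called 45.9%.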

How the data were processed

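RNA of 4 HEK293 cultures was primed with oligo(dT), labelled with Cy3 and hybridised to NimbleGen arrays of 60-base probes designed on HG18. The authors deposited 1 log2 intensity per probe and array, and the submitters' processing notes name RMA. The background correction, and which arrays were normalized together, are not given in the sources used here. Sorted values lay within 0.01 at 99.97% of ranks for replicates 1 and 2 and at 99.99% for replicates 3 and 4, but at 1.23% to 1.25% across these pairs. Raw intensities were not used.

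Accessions in the names of 71998 probes gave 24000 targets, and 19125 of these matched 17217 genes of a RefSeq table (GRCh38.p14). The linear values of a target's probes were averaged before log2 was taken, and targets of a gene were then averaged. The baseline rested on 10 of 11 seminal genes, since PYY2 was not matched. Distances were tested against 0 with limma 3.58 in R 4.3, one-sided, with Benjamini-Hochberg adjustment at 0.05 over all genes, and the code was tested on simulated data. The prior degrees of freedom were infinite, which gave all genes 1 standard error, 0.351. Uncertainty of the baseline within an array was not carried forward. The number of arrays limits the precision.

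The receptors and lists were chosen with earlier results of these data known. Named were the receptors, controls, markers and partner genes, other class A peptide receptors above the baseline, and the 3 of these receptors most like the highest member. Alternatives covered the baseline, the probe summary, normalization, dim probes and the arrays used. Of the listed partner and marker genes 2 are not reported here and enter no count of a list. Promoter sequences are RefSeq's.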

Additional observations from a re-analysis of the deposited data

Results flagged for a closer look

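Distances and levels of the 9 receptors and distances of 76 partner genes gave 94 sets of 4 values. In 6 of them 1 array lay so far out that its gap to the nearest array, divided by the whole range, passed the 95% critical value of Dixon's test, which chance alone does in about 1 set in 20. None of the 6 was a receptor. GNAI2, a Gi subunit, had a distance of 4.56 on replicate 1 with the other arrays at 3.40 to 3.60 (gap over range 0.83). OGFR, also on replicate 1, had 2.25 with the other arrays at 0.87 to 1.10 (0.833), and RGS4 had -2.05 there with the other arrays at -2.63 to -2.53 (0.832). The distance on replicate 3 was low for ACE, at -0.82 with the other arrays at 0.12 to 0.26 (0.867). It was also low there for GRK6, at 1.10 with the other arrays at 2.01 to 2.19 (0.837). On replicate 4 the distance of CACNA1A was high, at -2.71 with the other arrays at -3.51 to -3.43 (0.907). All 6 gaps are in distance, which includes the baseline of each array, and the levels ran otherwise for most of these genes. The levels of ACE and GRK6 were lowest on replicate 1, at 9.59 and 11.66. Those of GNAI2, OGFR and RGS4 were highest on replicate 3, at 14.09, 11.79 and 8.06. For CACNA1A replicate 4 was highest in level too, at 7.62. The baseline was lowest on replicate 1 and highest on replicate 3, and its part in these gaps was not tested.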

How the results depend on the processing

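The 2 summaries that use only some probes, with and without the brightest, were chosen after seeing the data. Of 64 alternative counts 52 stayed within 1.5 times and 12 moved, and among alternative distances of the receptors 173 kept their sign and their side of the limma threshold and 16 changed sign, all of SSTR5, OPRD1 or SSTR2. The count of receptors above the baseline was 3 with 1 SD, with scaled MADs, with olfactory controls and without SPATA5 and SPATA13, and 1 with the brightest probe, with dim probes left out, on replicates 1 and 2 alone and on replicates 2 and 4 alone. The share of all genes above the baseline was 64.3% with 1 SD, 67.7% with scaled MADs, 71.4% with olfactory controls and 74% without SPATA5 and SPATA13, and that of the other peptide receptors 12.7%, 19.7%, 22.5% and 25.4%. In the 4 settings that gave 1 receptor it was 51.6%, 52.7%, 55.9% and 52.4% of all genes. Limma called 2 with 1 SD and with scaled MADs, and 3 with olfactory controls and without SPATA5 and SPATA13.

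With 1 SD SSTR5, OPRD1 and SSTR2 stood at 1.06, 0.90 and 0.18, with scaled MADs at 1.45, 1.29 and 0.57, with olfactory controls at 1.83, 1.66 and 0.95, and without SPATA5 and SPATA13 at 2.07, 1.91 and 1.19. SSTR5 also stood at 0.39 with the brightest probe and 0.19 on replicates 1 and 2 alone, and OPRD1 at 0.12 with dim probes left out and 0.056 on replicates 2 and 4 alone. A lower baseline raises every distance by construction, and for the values with fewer probes or arrays the cause was not tested. Leaving out 1 replicate gave -0.47 to -0.06 for SSTR5, -0.66 to -0.24 for OPRD1 and -1.38 to -0.97 for SSTR2, and called none of the 9.

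Of the other genes named, with 3 SD ADCY1 stood at -0.18, ADCY3 at -0.37, GOPC at -0.40, PLD2 at -0.40, REST at -0.23, OGFR at -0.033, QRFPR at -0.28, NTSR1 at -0.89 and LRP2 at -0.051. Without the brightest probe PCSK1N stood at -0.050, QRFPR at -0.92 and NTSR1 at -3.01, with the median of the probes QRFPR at -0.88 and NTSR1 at -3.25, and with the mean of log2 probe values NTSR1 at -1.43. Others turned upward. Without SPATA5 and SPATA13 CORT stood at 0.73, PCSK2 at 0.65, GNAO1 at 0.50 and CACNA1B at 0.58, with olfactory controls at 0.49, 0.41, 0.25 and 0.34, and with scaled MADs CORT at 0.11 and PCSK2 at 0.029. Without SPATA5 and SPATA13 and with olfactory controls, in that order, 4 and 3 of 6 RGS genes, 2 and 2 of 9 nearest receptors, 4 and 3 of 7 kidney markers and 1 and 0 of 4 leukocyte markers lay above the baseline, and no GIRK gene did. Partner genes above the baseline numbered 28 to 53 under the alternatives. The order of SSTR2 and SSTR3 turned with the median (-0.36) and without the brightest probe (-0.36). Another background correction was not run, because raw intensities were not used here. No paired analysis was possible because the labels give 1 group.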
